A study of Mus musculus with 4 samples.

Results

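Fatty acids are the main fuel of the adult heart. They are released from lipoproteins at the vessel wall, taken up, bound to coenzyme A, carried into the mitochondrion as carnitine esters and shortened there by beta-oxidation. The nuclear receptors of the PPAR family sense fatty acids and raise the transcription of many of these genes, and PPAR alpha is the best known of them in heart muscle. The 38 genes described here cover that route and a set of well-known PPAR targets, and were taken as every probe whose gene name in the scanner files is one of the 38, out of 37074 gene names on the array.

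Hearts of C57BL/6J mice, 6-week-old females, were compared on 1 array per condition. The sample called the CY heart was taken after the alkylating drug cyclophosphamide (CY) at 400 mg/kg. The NAC + CY heart was taken after the thiol N-acetyl cysteine (NAC) at 200 mg/kg, given before CY at 400 mg/kg. The acrolein heart was taken after acrolein, a reactive aldehyde that CY metabolism yields, at 5 mg/kg, and the NS heart after normal saline only. All injections were intraperitoneal, once daily for 2 days, and the study's methods place the collection of hearts 3 h after the last dose, although its text names a later time in places. Although 3 independent studies are mentioned in the series text, a single array stood for each condition here. No difference below therefore has a replicate check or a p-value, and whether an array holds 1 animal or a pool is not given in the sources used here.

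A gene is read by its brightest probe with a P flag, which means that the spot was well above background, positive, unsaturated and not an outlier. All 38 genes had such a probe on all 4 arrays, among 20738 genes that had one on any array. Signals are quantile-normalised over the 4 arrays and in arbitrary units, so that a signal is compared between hearts and never between genes. Each gene also had an intensity-based Z-score, which sets its log2 ratio against the 200 probes of nearest brightness. A gene was called higher from a Z-score of 2 upwards if the ratio reached 1.5, and lower from -2 downwards if the ratio was no more than 0.66. The Z-score describes where a gene stands among genes on the same arrays and does not measure the spread between animals. The comparisons of CY, NAC + CY and acrolein with NS share 1 NS array.

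Of the 38 genes, 8 were called in at least 1 of the 4 comparisons and 30 in none. The calls fell on the thioesterases, uncoupling proteins and Pdk4, on the lipolysis genes Angptl4 and Pnpla2 and, once, on the coactivator gene Ppargc1a. PPARs raise many genes of the route, so the called genes do not stand for the PPAR targets as a set. None of the 14 mitochondrial beta-oxidation enzymes and none of the 7 genes of acyl-CoA activation and the carnitine shuttle was called in any comparison. Between 2.37% and 6.2% of all genes tested were called in a comparison, so that a count of 0 among 14 or 7 genes lies near the background. The uncoupling proteins Ucp2 and Ucp3 and the thioesterase Acot1 were higher in the CY heart than in the NS heart, and were lower in the NAC + CY heart than in the CY heart. Angptl4, the secreted inhibitor of lipoprotein lipase, was higher than in NS in the CY and acrolein hearts and lower than in NS in the NAC + CY heart.

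The members include 2 pairs of neighbouring genes, all 4 of them called lower in NAC + CY than in CY, and their upstream sequences are shown because PPAR acts through DNA elements near its targets. On the mm9 coordinates of the scanner files, the brightest probes of Ucp3 (chr7:107630399-107630458) and Ucp2 (chr7:107647809-107647868) lay 17350 bases apart, and those of Acot2 (chr12:85334553-85334612) and Acot1 (chr12:85358452-85358511) lay 23839 bases apart. The 250 bases before each gene's start follow, from RefSeq on GRCm38.p6 and 5′ to 3′ on the plus strand, which is the strand of all 4 genes. Capitals mark the half-site AGGTCA of nuclear receptors, searched on both strands. The stretches are chr7:100472741-100472990 for Ucp3, chr7:100493108-100493357 for Ucp2, chr12:83987611-83987860 for Acot2 and chr12:84009252-84009501 for Acot1.
Ucp3: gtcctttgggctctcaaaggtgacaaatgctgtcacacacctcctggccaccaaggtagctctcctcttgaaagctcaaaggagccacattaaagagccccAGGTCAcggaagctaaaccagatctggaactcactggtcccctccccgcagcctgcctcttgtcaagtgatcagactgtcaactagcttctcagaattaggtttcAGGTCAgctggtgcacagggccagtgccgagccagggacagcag
Ucp2: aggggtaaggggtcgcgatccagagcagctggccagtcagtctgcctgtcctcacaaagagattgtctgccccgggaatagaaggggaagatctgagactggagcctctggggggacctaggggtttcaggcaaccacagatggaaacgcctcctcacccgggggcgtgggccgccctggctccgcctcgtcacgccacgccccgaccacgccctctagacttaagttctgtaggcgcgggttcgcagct
Acot2: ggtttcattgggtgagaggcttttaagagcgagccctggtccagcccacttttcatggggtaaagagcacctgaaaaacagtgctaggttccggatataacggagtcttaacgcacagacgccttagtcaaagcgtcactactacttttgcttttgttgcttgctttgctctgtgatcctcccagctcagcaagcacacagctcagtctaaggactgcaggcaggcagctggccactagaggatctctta
Acot1: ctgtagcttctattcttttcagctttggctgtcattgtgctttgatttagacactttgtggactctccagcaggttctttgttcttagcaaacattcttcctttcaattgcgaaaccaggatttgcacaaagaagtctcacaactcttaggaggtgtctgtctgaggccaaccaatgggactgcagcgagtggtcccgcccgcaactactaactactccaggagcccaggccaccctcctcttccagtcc
The Ucp3 stretch held 2 half-sites, which began 149 and 44 bases before the start, and the other 3 stretches held 0. Among the 38 genes 32 matched the promoter table, with 36 windows from 250 bases before to 50 after a start. A half-site stood in 9 of the 36 windows, or 25%, against 16.3% of all 32851 windows. The full PPAR-type element, a pair of half-sites 1 base apart (AGGTCANAGGTCA), was in 0 of the 36 windows and in 0.0396% of all windows. With the fourth base of each half-site free (AGGNCANAGGNCA) it was in 0 of the 36 windows and in 0.381% of all windows. A motif match is a description of letters in a short window, and elements farther away were not searched.

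**Figure D1:**
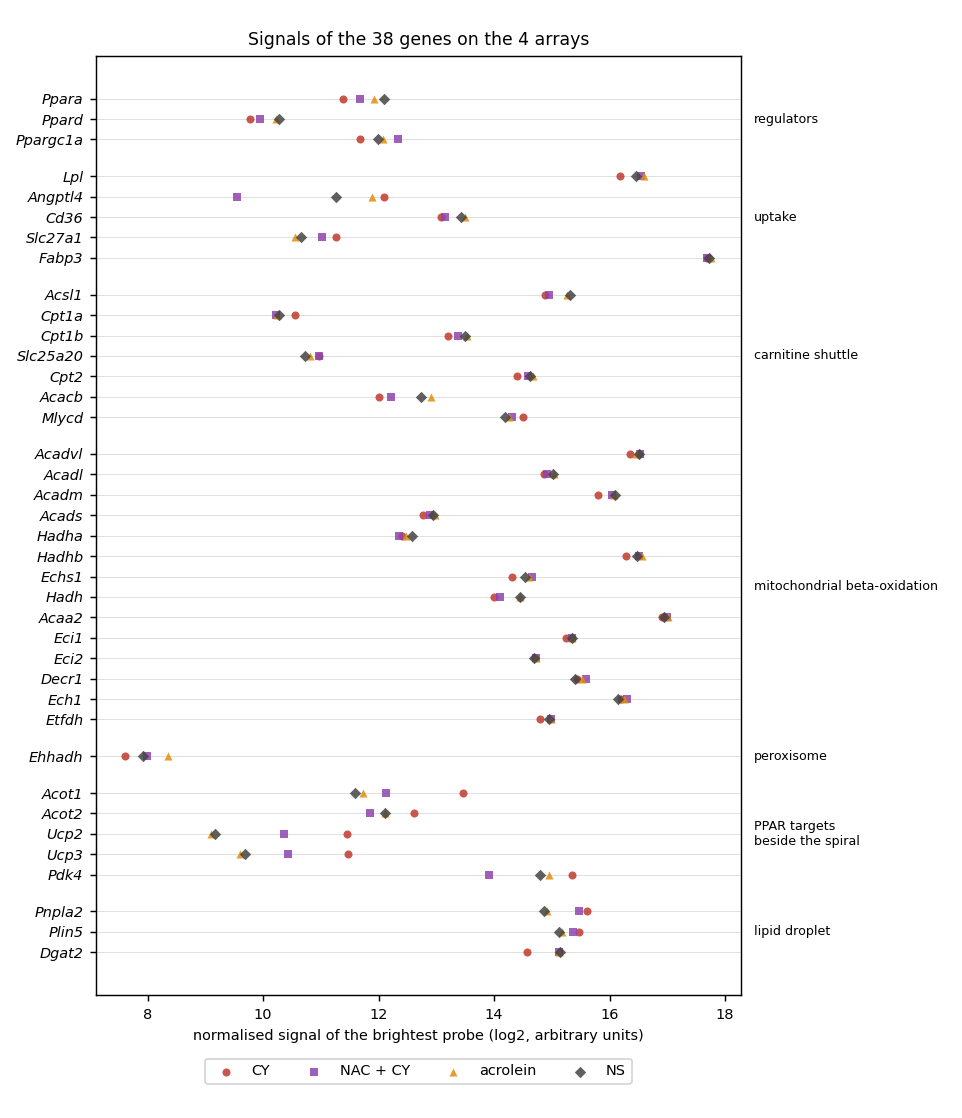
Normalised signal (log2, arbitrary units) of the brightest probe of each of the 38 genes on the 4 arrays, in rows by role; each point is 1 array, and points are to be compared within a row. For most rows the 4 points lie close together, while Angptl4, Acot1, Ucp2, Ucp3 and Pdk4 spread widely.

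The uncoupling proteins carry ions and metabolites across the inner mitochondrial membrane, and both are known PPAR targets that rise when muscle is supplied with fatty acids. Ucp2 had a signal of 2807 in the CY heart, 1322 in the NAC + CY heart, 549 in the acrolein heart and 578 in the NS heart. The CY heart thus stood highest, the NAC + CY heart between it and the others, and the acrolein heart close to NS. The log2 ratio to NS was 2.28 for CY, 1.19 for NAC + CY and -0.07 for acrolein, and the first and second of these were called. The second Ucp2 probe gave 2.34, 1.39 and 0.16 and the same calls. Ucp2 is widely expressed and is abundant in macrophages, and the summed signal of 8 macrophage markers was 1.37 times NS on the CY array and 0.828 times NS on the NAC + CY array; its part in the result was not tested.

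Ucp3, the uncoupling protein of striated muscle, followed the same order. Its signal was 2838 in the CY heart, 1380 in the NAC + CY heart, 772 in the acrolein heart and 820 in the NS heart. The log2 ratio to NS was 1.79 for CY, with a Z-score of 3.9, and was called. For NAC + CY it was 0.75 with a Z-score of 1.9, which missed the limit, though it was called with normexp background correction, 75th percentile scaling or a window of 400 probes. The 10 skeletal muscle markers summed to 3.16 times NS in CY, 1.51 in NAC + CY and 1.16 in acrolein. Of the 8 tested in CY against NS, 4 lay above and 4 below NS, at a median log2 ratio of -0.05. Their calls in CY went both ways, with 2 higher and 1 lower. Of the 7 tested in NAC + CY against NS, 6 lay below NS, at a median log2 ratio of -0.43, and 0 were called. The fast myosins Myh1 and Myh2 were not above background on any array, and the part of these markers in the result was not tested.

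The acyl-CoA thioesterases release free fatty acid from coenzyme A, Acot1 in the cytosol and Acot2 in the mitochondrial matrix. Acot1 had a signal of 11270 in the CY heart, 4458 in the NAC + CY heart, 3396 in the acrolein heart and 3096 in the NS heart. The log2 ratio of CY to NS was 1.86 (a ratio of 3.64) and was called, and NAC + CY and acrolein stood at 0.53 and 0.13 without a call. Acot2 had a signal of 6281 in CY, 3709 in NAC + CY, 4403 in acrolein and 4443 in NS, so that only the CY heart stood above NS, by a log2 ratio of 0.50 that was not called. Acot1 and Acot2 are close paralogs, each read by 1 probe, and cross-hybridisation between them was not tested.

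Pdk4 phosphorylates and switches off the pyruvate dehydrogenase complex, which turns muscle from glucose towards fatty acids. Its signal was 41953 in the CY heart, 15354 in the NAC + CY heart, 31625 in the acrolein heart and 28487 in the NS heart, with CY highest and NAC + CY lowest. Neither ratio to NS was called. The log2 ratio was 0.56 for CY, with a Z-score of 1.8, and -0.89 for NAC + CY, with a Z-score that rounds to -2.0 but fell just short of the limit. Pdk4 was called lower in NAC + CY with normexp, with quantile normalisation of the 2 arrays alone and with a window of 100 or 400 probes.

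Angptl4 keeps lipoprotein lipase inactive in the vessel bed and is a target of PPARs, of fasting and of glucocorticoids. Its signal was 4376 in the CY heart, 748 in the NAC + CY heart, 3792 in the acrolein heart and 2444 in the NS heart. The NAC + CY heart stood far below all 3 others, and the CY and acrolein hearts above NS. All 3 ratios to NS were called, with log2 ratios of 0.84 for CY, -1.71 for NAC + CY and 0.63 for acrolein. The summed fat markers were 1.21 times NS in CY, 2.14 times NS in NAC + CY and 0.692 times NS in acrolein, and their part in the result was not tested. The call for CY was close to the limit, at a Z-score of 2.1. With the acrolein array in place of the NS array, a choice made after seeing the data, the log2 ratio of Angptl4 in CY was 0.21, without a call.

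The enzyme that Angptl4 inhibits and the carriers of fatty acids were not called against NS. Lpl, lipoprotein lipase, had a signal of 74089 in CY, 95894 in NAC + CY, 99318 in acrolein and 90089 in NS, and its brightest probe was called in no comparison. Cd36, the fatty acid translocase, had 8703 in CY, 9116 in NAC + CY, 11497 in acrolein and 11002 in NS. The fatty acid transport protein Slc27a1 had a log2 ratio of 0.61 for CY and 0.37 for NAC + CY, both without a call, and the fatty acid binding protein Fabp3 lay between -0.04 and 0.04 in the 4 comparisons.

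Pnpla2, adipose triglyceride lipase, begins the breakdown of the lipid droplet and so supplies ligands of PPAR alpha in heart muscle. Its signal was 50038 in the CY heart, 45142 in the NAC + CY heart, 31035 in the acrolein heart and 29825 in the NS heart. The CY and NAC + CY hearts both stood above acrolein and NS, with called log2 ratios of 0.75 and 0.60, and acrolein at 0.06 was not called. The NAC + CY call was lost with the deposited value table, at 0.58, and with 75th percentile scaling, at 0.44. Of its neighbours at the droplet, the coat protein Plin5 stood at 0.34 in CY and 0.24 in NAC + CY. Dgat2, which makes triglyceride, had a signal of 24283 in CY, 35845 in NAC + CY, 35683 in acrolein and 36257 in NS, and neither gene was called.

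**Figure D2:**
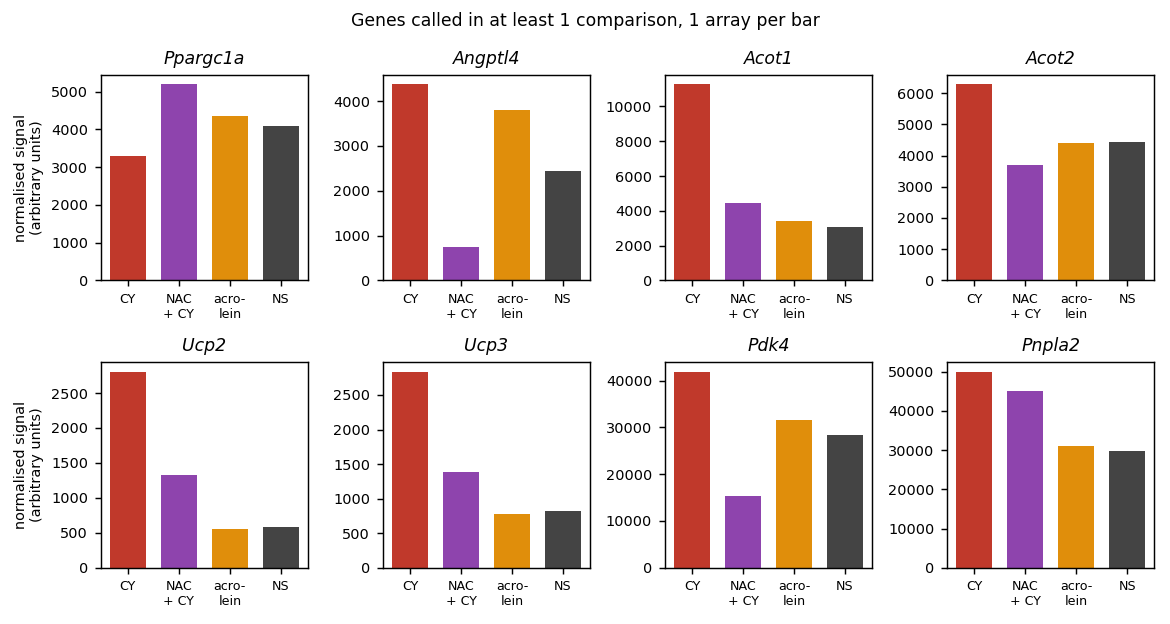
Normalised signals (linear, arbitrary units, axis from 0) of the 8 genes called in at least 1 comparison, 1 array per bar in the order CY, NAC + CY, acrolein and NS; with 1 array per condition there is no error bar. Acot1, Ucp2 and Ucp3 are highest on the CY array and second on the NAC + CY array, and Angptl4 and Pdk4 are lowest on the NAC + CY array.

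In the CY heart against the NS heart, 5 of the 38 genes were called higher (Acot1, Angptl4, Pnpla2, Ucp2 and Ucp3) and 0 lower. Over all 19721 genes tested, 3.38% were called higher and 2.81% lower, or 6.2% in either direction, while the 5 genes are 13.2% of the members. The median log2 ratio of the 38 genes was -0.15, beside -0.02 for all genes tested, so that most members lay slightly below NS while the called ones lay above it. The regulators lay below NS in CY without a call. Ppara, the receptor itself, had a signal of 2666 in CY, 3274 in NAC + CY, 3892 in acrolein and 4355 in NS, and its log2 ratio in CY was -0.71.

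The oxidation machinery lay slightly below NS in the CY heart. Of the 14 mitochondrial genes 11 had a ratio under 1, with a median log2 ratio of -0.16 and a range of -0.46 (Hadh, a hydroxyacyl-CoA dehydrogenase) to 0.04. Scaled to the 75th percentile of each array instead, 14 of 14 lay below NS, with a median of -0.26. The medium-chain dehydrogenase Acadm had a signal of 56852 in CY, 67726 in NAC + CY, 68888 in acrolein and 69827 in NS. The long-chain dehydrogenase Acadl had 29739 in CY, 31076 in NAC + CY, 33663 in acrolein and 33421 in NS. On both the CY heart was lowest, by a log2 ratio of -0.30 for Acadm and -0.17 for Acadl.

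The carnitine shuttle showed no common direction. Cpt1b, the muscle form of the rate-limiting carnitine palmitoyltransferase, had a signal of 9423 in CY, 10561 in NAC + CY, 11897 in acrolein and 11514 in NS. Cpt1a, the form that predominates in liver, had 1501 in CY, 1200 in NAC + CY, 1206 in acrolein and 1234 in NS. Cpt1b was thus lowest and Cpt1a highest in the CY heart, at log2 ratios of -0.29 and 0.28. Acacb, which makes the malonyl-CoA that inhibits both forms, had the lowest ratio of the 38 genes in CY, at -0.73, with a Z-score of -1.9. It was called lower with a window of 100 probes or with the acrolein array in place of NS. Mlycd, which degrades malonyl-CoA, stood at 0.32.

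In the NAC + CY heart against the NS heart, 2 of the 38 genes were called higher (Pnpla2 and Ucp2) and 1 lower (Angptl4). Over all 19808 genes tested, 2.68% were called higher and 2.59% lower, or 5.27% in either direction, so that these counts of 2 and 1 lie near the background. The median log2 ratio of the members was 0.01, beside -0.01 for all genes. The 14 mitochondrial genes had a median of 0.03, with 8 above NS and 6 below it. This balance turned with the scaling, since 1 lay above and 13 below NS, with a median of -0.17, when each array was scaled to its 75th percentile.

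In the acrolein heart against the NS heart, 1 of the 38 genes was called higher (Angptl4) and 0 lower. Over all 19700 genes tested, 1.08% were called higher and 1.29% lower, or 2.37% in either direction, and the single call lies near the background. The median log2 ratio of the members was 0.04, beside 0.01 for all genes. The 14 mitochondrial genes lay between -0.11 and 0.12. The peroxisomal bifunctional enzyme Ehhadh reached 0.44 on the log2 scale with a Z-score of 2.4 but missed the limit on the ratio, at a signal of 328 in acrolein and 241 in NS. For Acacb the probes disagreed in sign, with 0.18 on the brightest probe and -0.25 and -0.55 on the 2 dimmer ones.

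**Figure D3:**
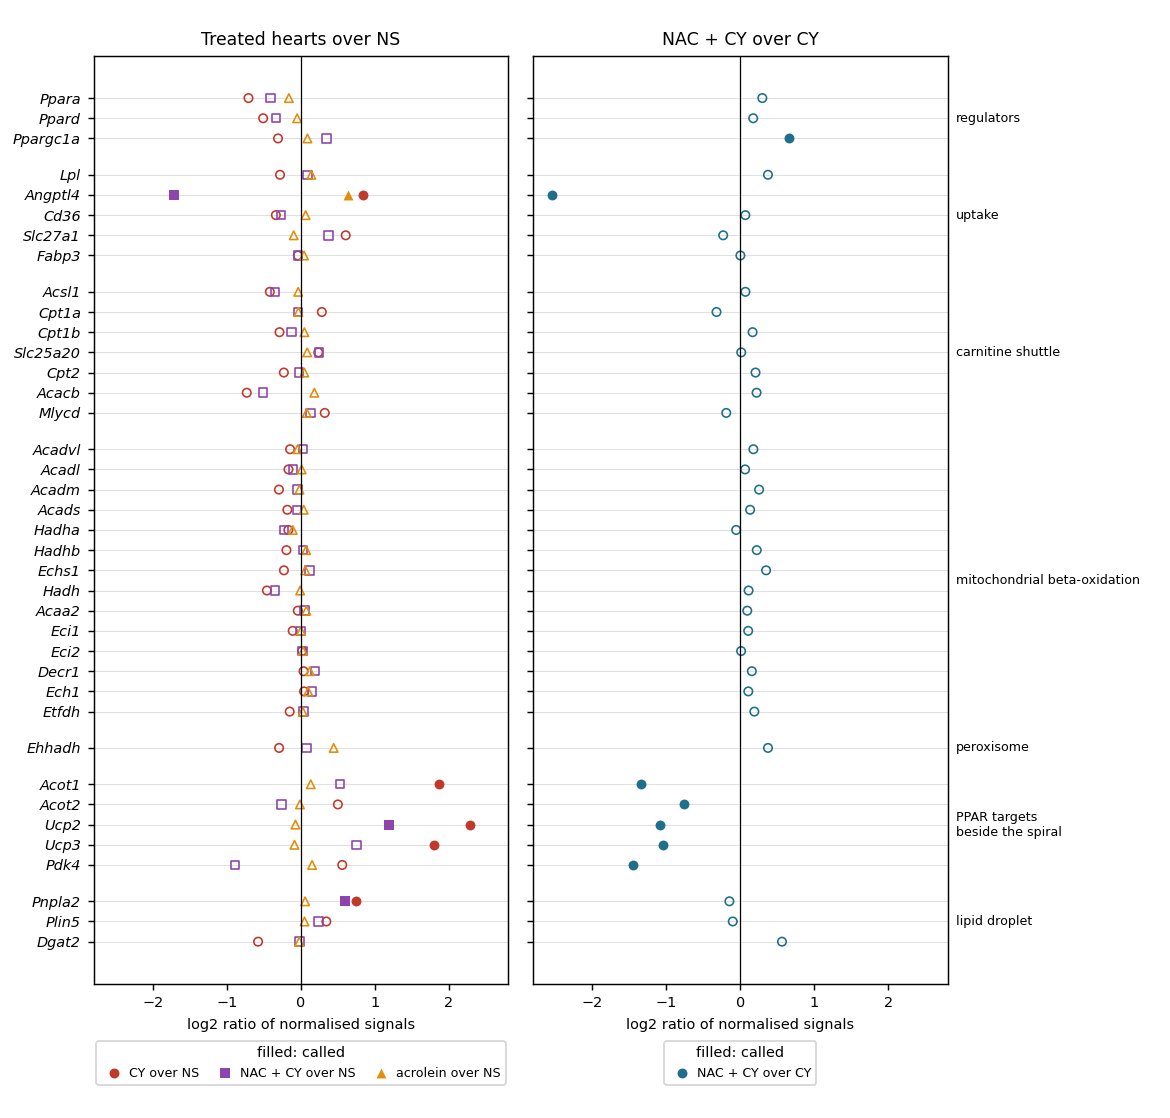
Log2 ratio of normalised signals of the 38 genes, for CY, NAC + CY and acrolein over NS (left) and for NAC + CY over CY (right); filled points were called and open points were not, and each ratio is between 1 array and 1 other. The mitochondrial genes lie near 0 in both panels, while Acot1, Acot2, Ucp2, Ucp3, Pdk4 and Angptl4 are called lower in NAC + CY than in CY.

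The NAC + CY heart was set directly against the CY heart, the comparison that addresses NAC given before CY. Of the 38 genes 6 were called lower (Acot1, Acot2, Angptl4, Pdk4, Ucp2 and Ucp3) and 1 higher (Ppargc1a). Over all 20083 genes tested, 2.82% were called lower and 1.54% higher, or 4.36% in either direction, while the 6 genes called lower are 15.8% of the members. The median log2 ratio of the members was 0.10, beside 0.02 for all genes. All 5 genes of the group of thioesterases, uncoupling proteins and Pdk4 were called lower. Their log2 ratios were -1.45 for Pdk4, -1.34 for Acot1, -1.09 for Ucp2, -1.04 for Ucp3 and -0.76 for Acot2. Angptl4 stood at -2.55, the 6th lowest Z-score of the 20083 genes.

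Ppargc1a, which encodes the coactivator PGC-1 alpha of PPARs and of mitochondrial biogenesis, had a signal of 5193 in NAC + CY and 3296 in CY, against 4343 in acrolein and 4084 in NS. Its log2 ratio of NAC + CY to CY was 0.66 with a Z-score of 2.2, and its dimmer probe gave 0.63 with a Z-score of 1.7, which was not called. Ppara and Ppard stood at 0.30 and 0.17 without a call. Of the 14 mitochondrial genes 13 had a ratio above 1, with a median of 0.12, and 10 did so on the deposited value table, with a median of 0.06. Dgat2 reached a Z-score of 2.0 at a ratio of 1.48, under the limit of 1.5. The 6 probes of Lpl spread from 0.37 on the brightest to 0.93 on a dim probe, the only 1 of them that was called.

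The 14 genes with more than 1 probe show how far probes of a gene lay apart. The median range between the probes of a gene was 0.18 log2 units for CY against NS, 0.20 for NAC + CY against NS, 0.11 for acrolein against NS and 0.08 for NAC + CY against CY. The largest range was 0.45 for CY against NS, in Lpl, and 0.73 for acrolein against NS, in Acacb. Acot1 and Ucp3 have 1 probe each and so no such range, while the Ucp2 probes gave 2.28 and 2.34 in CY. The log2 ratios of most mitochondrial genes in CY were of about the size of the median range. A range between probes of the same arrays holds no spread between animals, so it cannot show whether a difference between hearts is large.

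Genes of the same pathways outside the 38 numbered 78 here, of which 75 were tested for CY against NS and for NAC + CY against CY, and 74 for the other comparisons. In CY against NS 4 were called higher and 4 lower, in NAC + CY against NS 7 higher and 3 lower, in acrolein against NS 1 higher and 3 lower, and in NAC + CY against CY 8 higher and 3 lower. In CY the 4 genes are 5.33% of those tested in each direction, beside 3.38% and 2.81% of all genes. In NAC + CY against NS the shares called higher and lower are 9.46% and 4.05%, beside 2.68% and 2.59% of all genes. For acrolein against NS these shares are 1.35% and 4.05%, beside 1.08% and 1.29%. For NAC + CY against CY they are 10.67% and 4.0%, beside 1.54% and 2.82%. The genes named next are single values and not a trend of their lists. Of 4 enzymes of ketone body metabolism, which is linked to beta-oxidation through acetyl-CoA, Oxct1 and Bdh1 were called. Oxct1, which commits ketone bodies to oxidation, had a signal of 32841 in CY, 52051 in NAC + CY, 72251 in acrolein and 69960 in NS. It fell in CY, at a log2 ratio of -1.09 to NS. Bdh1, the hydroxybutyrate dehydrogenase, had 942 in CY, 4366 in NAC + CY, 2688 in acrolein and 1788 in NS. It rose in NAC + CY and acrolein against NS, at 1.29 and 0.59, and its log2 ratio of NAC + CY to CY was 2.21. The summed hepatocyte markers were 7.48 times NS in NAC + CY and 0.804 in acrolein, and their part in the Bdh1 values was not tested.

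Among 14 further nuclear receptors and coregulators, 2 were called lower in CY, or 14.3% beside 2.81% of all genes, and none higher. Ppargc1b, the coactivator PGC-1 beta, had a signal of 500.1 in CY, 1272 in NAC + CY, 2499 in acrolein and 2388 in NS. Its log2 ratio to NS was -2.26 in CY and -0.91 in NAC + CY, both called. Esrrg, an oestrogen-related receptor that acts with these coactivators on genes of energy metabolism, had 525 in CY, 834 in NAC + CY, 1358 in acrolein and 1271 in NS. It fell in CY, at -1.27, and was called higher in NAC + CY than in CY, at 0.67, as was Ppargc1b, at 1.35.

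Relatives of the called members were mixed. Pdk3, another pyruvate dehydrogenase kinase, rose in CY at a log2 ratio of 1.42 and stood at 0.51 in NAC + CY without a call. Cpt1c, a brain-type carnitine palmitoyltransferase, rose in CY and NAC + CY at 1.62 and 1.26. Acot7, a thioesterase abundant in brain, fell in both, at -0.85 and -0.86. Acot4, a peroxisomal thioesterase, was at least 2.72-fold higher in CY than in NS, where its probe was not well above background.

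**Figure D4:**
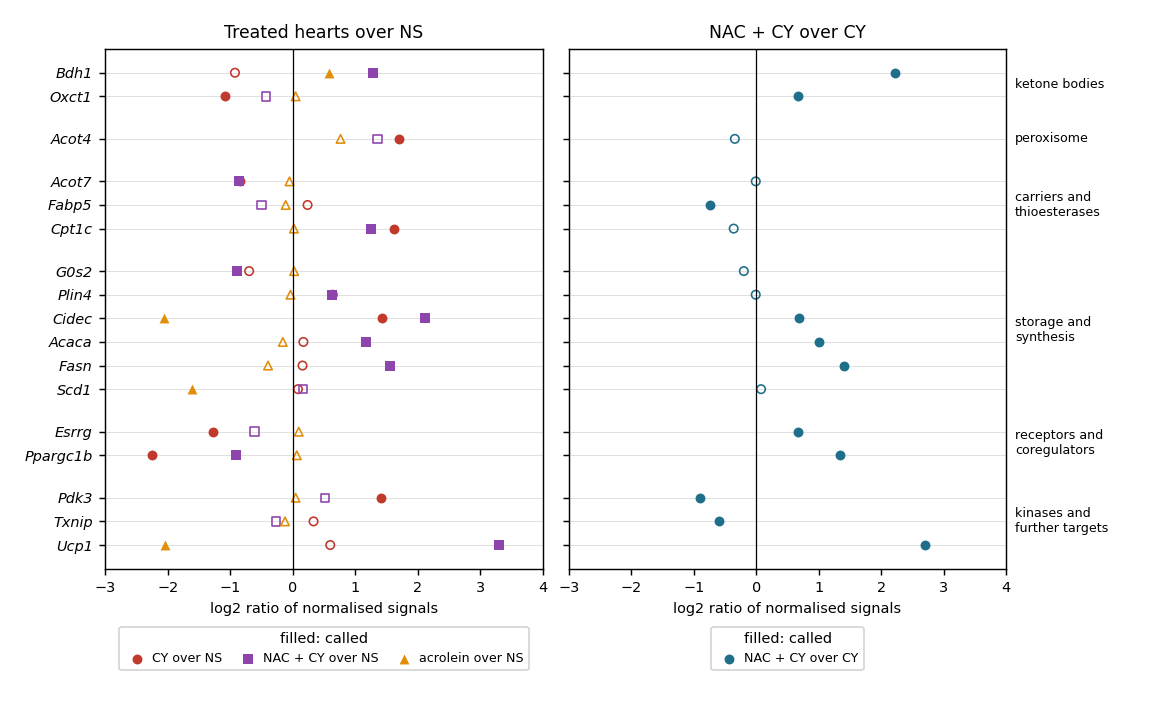
Log2 ratio of normalised signals of the other pathway genes called in at least 1 comparison, for CY, NAC + CY and acrolein over NS (left) and for NAC + CY over CY (right); filled points were called, and the Acot4 ratios to NS rest on an NS probe not well above background. Ppargc1b, Oxct1 and Esrrg lie lowest in CY and nearer to NS in NAC + CY, while Ucp1 and Cidec lie in opposite directions in NAC + CY and in acrolein.

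The hearts were whole tissue, so that fewer cells of a type and less RNA per cell cannot be told apart. The 13 markers of ventricular heart muscle were above background on all 4 arrays, and their summed signal was 0.864 times NS in CY, 0.925 in NAC + CY and 1.01 in acrolein. In CY 11 of these 13 lay below NS, at a median log2 ratio of -0.24, and Actc1 was called lower in both CY and NAC + CY. The sums of several other lists moved more in CY. The 8 atrial markers summed to 2.66 times NS in CY, 1.61 in NAC + CY and 1.25 in acrolein, and 7 of 8 were called higher in CY. The 8 markers of mesothelium, the cover of the heart, summed to 2.96 times NS in CY, 0.940 in NAC + CY and 0.495 in acrolein, and 7 of 8 were called lower in NAC + CY than in CY.

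The 12 fat markers summed to 1.21 times NS in CY, 2.14 in NAC + CY and 0.692 in acrolein, with 8 of 12 called higher in NAC + CY and 9 of 12 called lower in acrolein. The 15 hepatocyte markers summed to 3.11 times NS in CY, 7.48 in NAC + CY and 0.804 in acrolein. On the CY, acrolein and NS arrays 7 of the 15 were above background, and on the NAC + CY array 14 were. Alb and Fgb were above background on the NAC + CY array alone. Of the 14 tested in NAC + CY against NS, 11 were called higher and 0 lower, at a median log2 ratio of 3.50. Of the 7 tested in CY against NS, 3 were called higher and 4 lay below NS, at a median log2 ratio of -0.26. The 8 endothelial markers summed to between 0.790 and 0.844 times NS on the 3 treated arrays. Among them Kdr was called lower than NS in both CY and NAC + CY. Angptl4 and Pnpla2 are expressed in fat as well as in heart muscle. The part of all these markers in the results was not tested.

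**Figure D5:**
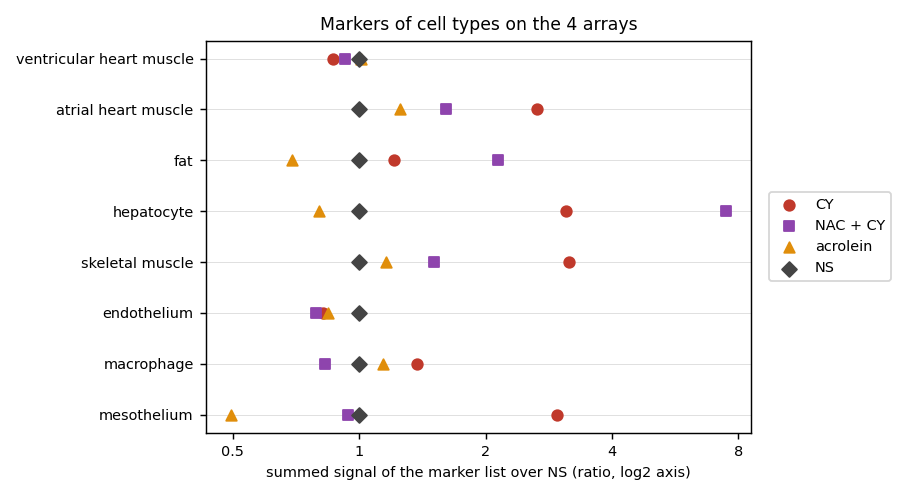
Summed signal of each cell type's markers over its NS value (ratio, log2 axis), 1 point per array. On the treated arrays the sums of ventricular markers lie between 0.864 and 1.01, and those of endothelial markers between 0.790 and 0.844. Those of atrial, skeletal muscle and mesothelial markers are highest in CY, and those of hepatocyte and fat markers in NAC + CY. In CY the skeletal muscle and hepatocyte lists hold markers above and below NS, and in NAC + CY most skeletal muscle markers tested lay below NS.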

How the data were processed

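Total RNA from heart was labelled with Cy3 and hybridised to 1-colour SurePrint G3 Mouse 8x60K v2 arrays, 4 arrays on 1 slide. The authors extracted spot intensity with Agilent Feature Extraction (version 10.7.1.1 per the file headers, 9.5.1.1 in the submitters' processing notes), and the deposited processed signal is background-subtracted and detrended within each array. The deposited value table holds intensity normalised between arrays. Its sorted columns differ by at most 6.29, and its lowest correlation with the scanner signals, on the log2 scale, is 0.99963.

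Log2 processed signals of the 59305 non-control spots per array were quantile-normalised over the 4 arrays, after the study's criteria, and spots were averaged to 56605 probes (Python 3.11.15, numpy 2.4.6, pandas 2.3.3). Normexp values came from limma 3.58.1 in R 4.3.3. No spot was saturated. Of the probes 49.6% in CY, 49.9% in NAC + CY, 50.0% in acrolein and 47.1% in NS were well above background, and the median SD of repeated spots within an array was 0.046 to 0.050 log2 units. The number of arrays limits the precision: 1 per group allows no test.

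The members have 59 probes, of which 1, for Acsl1, had a P flag on no array, and the accessions of 52 name the same gene in RefSeq. Values on every array are given for the members called in at least 1 comparison and for a few fixed regulators, carriers and enzymes, and the others by range and count. Other pathway genes were named where called, at most 4 per list by size of ratio. A gene of the pathway lists is not reported here. The members, pathway lists and marker lists were chosen with earlier results of these data known. The half-site search was added after the full element had been searched. Alternatives changed the background correction, the normalisation, the filter, the probe of a gene, the window, the thresholds and the source of the values.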

Additional observations from a re-analysis of the deposited data

How the results depend on the processing

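No paired analysis was possible because each condition has 1 array, and no array could be left out of a group. In CY against NS, the number of members called was 5, and was 3 with a Z-score of 3, 3 with a ratio of 2, and 8 with the ratio alone, which added Slc27a1 higher and Acacb and Ppara lower. It was 6 with a window of 100 probes, which added Acacb lower, and 4 with a window of 400, which lost Angptl4. In NAC + CY against NS it was 3, and was 5 with normexp, with a window of 400 probes and with the ratio alone, each of which added Ucp3 higher and Pdk4 lower. It was 1 with a Z-score of 3, and 5 with the acrolein array as the reference, an alternative chosen after seeing the data, under which Acacb was called lower in both CY and NAC + CY. In acrolein against NS it was 1, and 0 with a ratio of 2. The median log2 ratio of the members became -0.25 in CY, -0.16 in NAC + CY and -0.0066 in acrolein with each array scaled to its 75th percentile. With the deposited value table it became -0.090 for CY against NS and 0.029 for NAC + CY against CY.

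The 16 called ratios of single members were recomputed 216 times. The call held in 197 and was lost in 19, and 9 of the 16 held every time. None changed sign, but changes of filter, window or limit left the log2 ratio as it was and could not change its sign. The ratio alone could not lose a call, and the median over probes changed nothing for a gene with 1 probe. Part of the 197 was therefore fixed in advance. Among the losses, Angptl4 in CY missed the Z-score limit with a window of 400 probes, and Ucp2 in NAC + CY did so with a window of 100 probes, at a Z-score of 1.6. Pnpla2 in NAC + CY lost its call in 5 of 14 alternatives, at 0.44 with the 75th percentile, 0.58 with the deposited value table and 0.54 with the acrolein array as the reference, and under both stricter limits. Ppargc1a in NAC + CY against CY missed the Z-score limit with the median over its probes. Without replicate arrays, the spread between animals is unknown for every value.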

Other observations

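Of 17 genes of lipid storage and synthesis, 4 were called higher and 1 lower in NAC + CY against NS, 1 higher and 0 lower in CY, and 0 higher and 2 lower in acrolein. The shares over all genes were 2.68% and 2.59% in NAC + CY, 3.38% and 2.81% in CY, and 1.08% and 1.29% in acrolein, and 11 of the 17 were called in none of the 4 comparisons. Fasn, fatty acid synthase, had a signal of 3694 in CY, 9793 in NAC + CY, 2519 in acrolein and 3313 in NS, and its log2 ratio of 1.56 in NAC + CY was called. Acaca, the carboxylase that supplies malonyl-CoA to it, had 482 in CY, 964 in NAC + CY, 384 in acrolein and 428 in NS, and its log2 ratio of 1.17 in NAC + CY was called as well. Both were highest in the NAC + CY heart, where the summed fat markers were 2.14 times NS and the hepatocyte markers 7.48 times NS. The part of fat or liver tissue in the Fasn and Acaca values was not tested.

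Cidec, a lipid droplet protein of fat cells, had a signal of 1364 in CY, 2200.0 in NAC + CY, 121 in acrolein and 507 in NS. It rose in CY and NAC + CY, at log2 ratios of 1.43 and 2.12, and fell in acrolein, at -2.07. Ucp1, the uncoupling protein of brown fat, had 962 in CY, 6287 in NAC + CY, 153 in acrolein and 635 in NS. Its log2 ratio to NS was 3.31 in NAC + CY and -2.05 in acrolein, both called. Scd1, a fatty acid desaturase, fell in acrolein at -1.61. Cidec and Ucp1 are also on the list of fat markers, whose summed signal was 2.14 times NS in NAC + CY and 0.692 times NS in acrolein, and the part of fat tissue in these values was not tested.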
